A study of Mus musculus with 6 samples.

Results

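The Toll-like receptor and NF-kB pathway was described in liver through 38 genes, taken by gene symbol from a table of 29734 genes. They comprised 11 Toll-like receptors, 7 co-receptors and adaptors, 4 IRAK kinases, 3 subunits of the IKK kinase, 5 NF-kB subunits, 5 IkB proteins, and the feedback genes Tnfaip3 and Tnip1 with the survival gene Birc3. Each symbol stood on a single row, and all 38 passed the filter on low counts. Liver RNA came from male mice that began a Western diet at 8 weeks of age and received it for 20 weeks. The Prdx1 C52S group (libraries 1, 2 and 4) carried the Cys52Ser variant of peroxiredoxin 1, a peroxide-reducing enzyme whose cysteine 52 meets the peroxide, and the WT group (libraries 6, 8 and 9) carried the wild-type gene. Diet, sex, age and tissue were shared by both groups, and no chow-fed group was analysed here. The labels do not say how the allele was made or whether each library came from a separate animal, so the p-values measure the spread between these libraries only. From the title of the series, the comparison asks whether inflammation is lower with the variant.

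Toll-like receptors recognise microbial lipids, proteins and nucleic acids at the cell surface or in endosomes. They recruit adaptors such as MyD88 and TRIF, of which MyD88 activates IRAK kinases and then the IKK complex. IKK marks IkB proteins for destruction and so frees NF-kB dimers to enter the nucleus, where they switch on cytokine genes and also the genes of their own inhibitors. In liver, resident and recruited macrophages carry most of these receptors, while hepatocytes, endothelial cells and bile duct cells hold much of the shared signalling machinery.

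The libraries held between 60326469 and 76164949 estimated counts, where about 4 counts were taken to correspond to 1 sequenced fragment. Levels are FPKM, that is, fragments scaled to transcript length and library depth. Fold changes are log2 values of Prdx1 C52S minus WT from edgeR after TMM scaling, with their SE. TMM scaling raises the Prdx1 C52S libraries relative to WT: the median log2 fold change of all 18931 genes tested was -0.03 with it and -0.34 on library totals alone, so a gene with equal FPKM in both groups has a positive fold change. WT 8 stood apart from the other libraries, since 6 bile duct markers summed to 63.2 to 132 FPKM in Prdx1 C52S but to 358, 830 and 229 FPKM in WT 6, 8 and 9, and 5 Kupffer cell markers to 162 to 206 FPKM in Prdx1 C52S but to 237, 35.2 and 267 FPKM in WT 6, 8 and 9 (Timd4 was listed at 0 in WT 8). Hepatocyte markers summed to 31000 to 34100 FPKM in Prdx1 C52S and 27500 to 30200 in WT. Summed over 10 leukocyte and macrophage markers the level was 189 to 224 FPKM in Prdx1 C52S and 431 to 491 in WT, with none of the 10 at 0 in any library and 7 of them lower at an unadjusted p under 0.05. All 6 bile duct markers were lower at that p, beside 14.8% of all genes tested. T cell markers summed to 0.763 to 1.04 FPKM in Prdx1 C52S and 2.64 to 5.78 in WT. For neutrophil markers the sums were 4.86 to 17.3 and 19.9 to 24.5, and for stellate cell markers 51.6 to 63.4 and 68.1 to 96.5. At an unadjusted p under 0.05, 2 of the 5 neutrophil markers tested and 2 of the 6 stellate cell markers were lower. The neutrophil marker Ly6g was listed at 0 in Prdx1 C52S 4 and in every WT library. The sums of B cell, plasmacytoid dendritic cell and sinusoidal endothelium markers overlapped. In bulk tissue, fewer cells of a type and less RNA per cell cannot be told apart. Prdx1 transcript lay between 232 and 270 FPKM in all 6 libraries, and since a single-residue change need not alter that level, it does not check the genotype labels.

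Receptors of nucleic acids, the surface receptors Tlr1 and Tlr2 and the LPS co-receptor gene Cd14 were lower in Prdx1 C52S livers. So were 6 of a group of 8 feedback and survival genes of the pathway. Fewer members were higher, namely Chuk and Ikbkg, of the IKK kinase, and the adaptor gene Tirap, whose groups overlapped. These differences are at an unadjusted p under 0.05 and did not pass adjustment. With all 6 libraries, no member passed an adjusted p of 0.05 in edgeR with Benjamini-Hochberg adjustment (background over all genes, 0% lower and 0% higher), and the smallest adjusted p was 0.0553, for Tnfaip3. At an unadjusted p under 0.05, 17 of 38 members (44.7%) were lower, against 14.8% of all genes tested, and 3 (7.89%) were higher, against 11.5%. DESeq2 on the same counts called 13 members lower (background 9.88%) and 2 higher (background 8.02%) after adjustment. Without WT 8, edgeR called 6 members lower (Tlr1, Tlr7, Tlr8, Tlr13, Irak3 and Tnfaip3; background 1.94%) and Ikbkg higher (background 2.7%). The median log2 fold change of the members was -0.28 with all libraries and -0.25 without WT 8, beside -0.03 and -0.01 for all genes tested. After TMM scaling the groups did not overlap in 21 members that were lower (55.3%, background 18%) and in 4 that were higher (background 16.9%). In plain FPKM this held for 26 lower members (68.4%, background 36.7%) and 2 higher ones (background 6.09%).

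**Figure D1:**
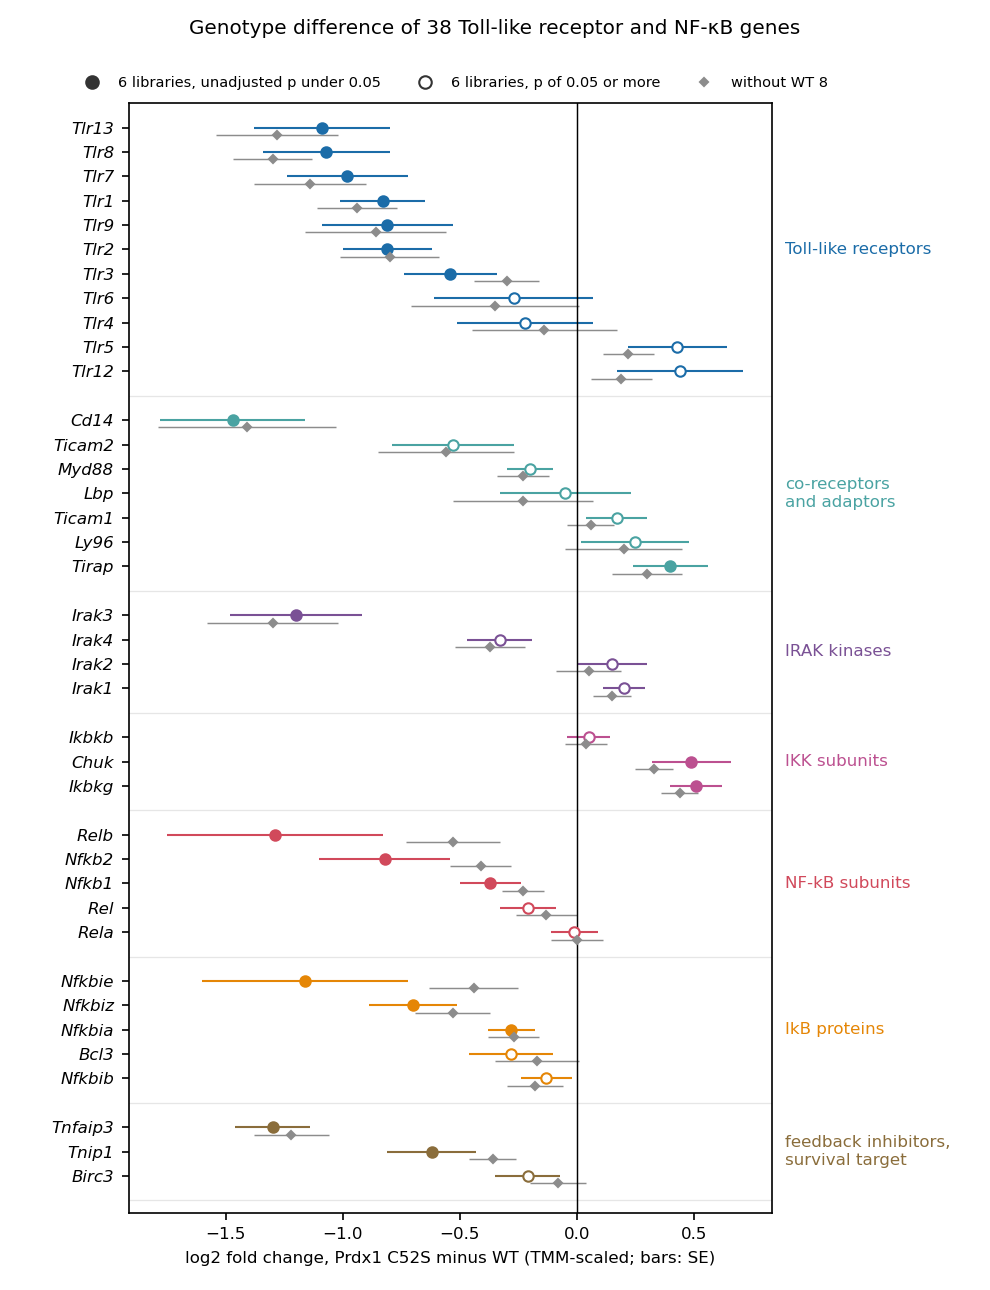
Log2 fold change of Prdx1 C52S minus WT (TMM-scaled, horizontal axis) for each of the 38 members, grouped by role, with SE bars; filled circles have an unadjusted p under 0.05 with all 6 libraries and grey diamonds leave out WT 8. Receptors reach -1.09 (Tlr13) and feedback inhibitors -1.30 (Tnfaip3), IKK subunits lie between 0.05 and 0.51, and Relb and Nfkbie lie closer to 0 without WT 8.

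NF-kB induces many genes of its own circuit through the kappaB element, and the promoters of the members were therefore read for it. RefSeq promoter windows on GRCm38.p6, from 250 bases before to 50 bases after an annotated start, were at hand for 28 of the 38 members. No window was at hand for Tlr4, Tlr7, Ticam2, Cd14, Ly96, Lbp, Nfkb1, Relb, Nfkbiz and Ikbkb, which the comparison below leaves out. Among those left out, Tlr7, Cd14, Nfkb1, Relb and Nfkbiz were lower at an unadjusted p under 0.05 and none was higher. On either strand, 10 of the 28 members with a window (35.7%) had a match to the kappaB consensus, against 9.55% of 27025 genes. The letters of the consensus allow either purine or pyrimidine at some positions. Another form, GGG and TTTCC parted by any 2 bases, which overlaps the consensus but leaves its 4th base free, was found in 5 members (17.9%) and in 1.89% of genes. The members with a consensus match were Tlr2, Tlr3, Irak1, Rel, Nfkb2, Nfkbia, Nfkbie, Bcl3, Tnfaip3 and Tnip1. Of these 10, 7 (70%) were lower at an unadjusted p under 0.05 and none was higher (median log2 fold change -0.58). Of the 18 members with a window and no match, 5 (27.8%) were lower and 3 (16.7%) higher (median -0.16). Over all genes tested these shares were 14.8% lower and 11.5% higher. Without WT 8 the medians were -0.33 and -0.13, and after adjustment edgeR called 1 of the 10 lower (Tnfaip3; background 1.94%). Of the 18 it called 4 lower (background 1.94%) and 1 higher (background 2.7%). After TMM scaling 7 of the 10 members with a match were highest in WT 8 (background 31.4%). The part of NF-kB in these differences was not tested. A match is a description of letters and not a binding measurement. For 4 members 1 window each follows, 5′ to 3′ on the strand of the gene, with the matches in capitals. These genes are shown because they cover a feedback inhibitor, an IkB protein, an NF-kB subunit and a receptor, all lower in Prdx1 C52S. Tnfaip3 has 2 windows, of which only the printed window holds a match. Nfkb2 has 3 windows, and all of them hold a match.
Tnfaip3, chr10:19015361-19015660, minus strand: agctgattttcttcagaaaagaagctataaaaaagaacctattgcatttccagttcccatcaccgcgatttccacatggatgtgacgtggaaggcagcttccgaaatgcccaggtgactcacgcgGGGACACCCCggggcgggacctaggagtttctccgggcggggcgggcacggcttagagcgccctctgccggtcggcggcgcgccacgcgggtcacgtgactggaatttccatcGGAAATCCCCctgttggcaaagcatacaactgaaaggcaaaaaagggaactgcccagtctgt
Nfkbia, chr12:55492598-55492897, minus strand: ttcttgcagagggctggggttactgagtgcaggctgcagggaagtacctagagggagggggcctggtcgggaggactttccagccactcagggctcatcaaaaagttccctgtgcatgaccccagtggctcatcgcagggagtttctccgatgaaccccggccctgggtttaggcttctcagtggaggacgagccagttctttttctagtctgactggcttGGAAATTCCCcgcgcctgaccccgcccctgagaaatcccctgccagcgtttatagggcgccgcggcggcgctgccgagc
Nfkb2, chr19:46304487-46304786, plus strand: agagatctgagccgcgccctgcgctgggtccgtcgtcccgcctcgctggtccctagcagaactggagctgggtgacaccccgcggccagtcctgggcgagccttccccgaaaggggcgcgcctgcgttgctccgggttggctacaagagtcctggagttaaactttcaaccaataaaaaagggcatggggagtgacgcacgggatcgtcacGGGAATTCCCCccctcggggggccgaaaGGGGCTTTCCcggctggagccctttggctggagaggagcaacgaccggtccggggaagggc
Tlr2, chr3:83841559-83841858, minus strand: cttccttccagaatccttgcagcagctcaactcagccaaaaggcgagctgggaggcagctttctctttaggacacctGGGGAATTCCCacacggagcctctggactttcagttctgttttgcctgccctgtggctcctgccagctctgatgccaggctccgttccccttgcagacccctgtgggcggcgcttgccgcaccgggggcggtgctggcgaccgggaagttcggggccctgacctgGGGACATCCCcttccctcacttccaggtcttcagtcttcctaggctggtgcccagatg

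**Figure D2:**
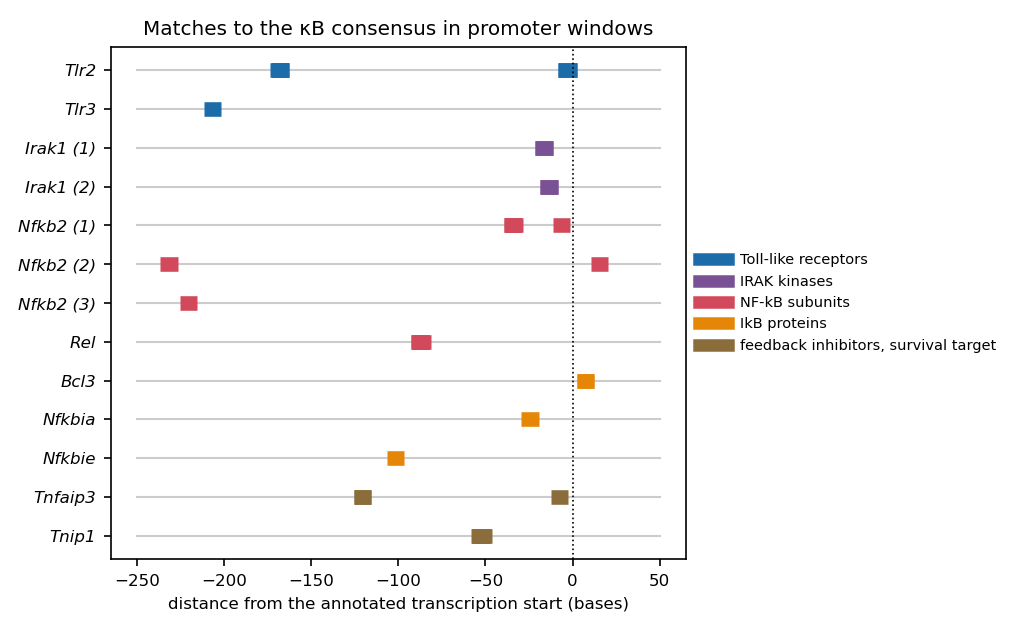
Position of matches to the kappaB consensus (coloured blocks) in the 300-base promoter windows of the 10 members that have one, by distance in bases from the annotated transcription start (dotted line at 0); numbers after a gene name count its alternative starts. Matches lie on both sides of the start. Within 30 bases before it lie those of Nfkbia (-29 to -20) and Irak1 (-21 to -12 and -18 to -9). The same holds for 1 match each of Tnfaip3 (-12 to -3) and Nfkb2 (-11 to -2), and a match of Tlr2 crosses the start (-8 to 2).

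Of the 11 Toll-like receptors, 7 (63.6%) were lower at an unadjusted p under 0.05, beside 14.8% of all genes tested. None was higher (background 11.5%), and the median log2 fold change was -0.81. All 5 receptors that sample nucleic acids in endosomes were among the lower ones. The others were the surface receptors Tlr1 (-0.83) and Tlr2 (-0.81), within the range of the endosomal ones (-1.09 to -0.54). Tlr13, which in mouse recognises bacterial ribosomal RNA, had 1.42, 0.879 and 1.44 FPKM in Prdx1 C52S 1, 2 and 4, against 4.18, 2.67 and 2.75 FPKM in WT 6, 8 and 9. Every Prdx1 C52S library lay below every WT library, with a log2 difference of -1.09 (SE 0.29, edgeR adjusted p = 0.0981; -1.28 and adjusted p = 0.043 without WT 8). Tlr8, a receptor for single-stranded RNA and its breakdown products, was at 0.828, 0.777 and 0.888 FPKM in Prdx1 C52S and at 2.49, 1.58 and 2.23 FPKM in WT. Its groups were also apart (-1.07, SE 0.27, edgeR adjusted p = 0.0932; -1.30 and adjusted p = 0.0144 without WT 8). Tlr7, the neighbouring gene on chromosome X and likewise a receptor for single-stranded RNA, had 0.952, 0.824 and 1.24 FPKM in Prdx1 C52S, against 3.06, 2.14 and 2.02 FPKM in WT (-0.98, SE 0.26, edgeR adjusted p = 0.0975; -1.14 and adjusted p = 0.043 without WT 8). Tlr9, the receptor for unmethylated CpG DNA, was at 0.317, 0.327 and 0.282 FPKM in Prdx1 C52S and 0.785, 0.697 and 0.505 FPKM in WT, with 66 to 96 counts against 146 to 220 (-0.81, SE 0.28, edgeR adjusted p = 0.134). Tlr3, which binds paired-strand RNA and signals through TRIF, had 1.42, 1.63 and 1.40 FPKM in Prdx1 C52S, against 2.07, 3.97 and 2.10 FPKM in WT. Its highest value was in WT 8, and the fold change of -0.54 (SE 0.20, edgeR adjusted p = 0.146) was -0.30 without that library.

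Among the receptors of the cell surface, Tlr1 and Tlr2, which pair to bind bacterial lipoproteins, were lower. Tlr2, whose promoter window is printed above, was at 2.31, 1.37 and 1.89 FPKM in Prdx1 C52S and at 3.85, 4.58 and 3.54 FPKM in WT (-0.81, SE 0.19, edgeR adjusted p = 0.0874). Tlr1 had 1.46, 1.14 and 1.44 FPKM in Prdx1 C52S, against 3.19, 2.87 and 2.69 FPKM in WT (-0.83, SE 0.18, edgeR adjusted p = 0.0821; -0.94 and adjusted p = 0.0317 without WT 8). Both genes separated the genotypes in every library. Tlr6, the other partner of Tlr2 and a close paralog of Tlr1 with which reads may be shared, lay at 0.305 ± 0.0849 FPKM in Prdx1 C52S and 0.447 ± 0.096 in WT (SD, n = 3 each), and its groups overlapped. Tlr4, the receptor for lipopolysaccharide (LPS), lay at 0.577 ± 0.0913 and 0.836 ± 0.305 FPKM in the same order of groups, with 0.487 in WT 9 below the Prdx1 C52S values. The log2 difference was -0.22 (SE 0.29, edgeR adjusted p = 0.666), and single omissions took it to -0.46 (WT 9) and to -0.02 (WT 6).

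The most abundant receptor transcript in both groups was Tlr12, whose product in mouse detects a profilin of parasites. It was followed by Tlr5, the flagellin receptor, in Prdx1 C52S, and by Tlr2 in WT (mean 3.99 FPKM, beside 3.52 for Tlr5). Tlr12 had 9.72, 7.92 and 10.2 FPKM in Prdx1 C52S, against 8.41, 5.84 and 10.2 FPKM in WT (0.44, SE 0.27, edgeR adjusted p = 0.329; 0.19 without WT 8). Tlr5 had 4.38, 3.59 and 3.91 FPKM in Prdx1 C52S, against 3.81, 2.81 and 3.94 FPKM in WT (0.43, SE 0.21, edgeR adjusted p = 0.24; 0.22 without WT 8). In both genes the FPKM of the groups overlapped and the lowest value was in WT 8. Averaged over all 6 libraries, in which the groups differ, the receptor levels ran in the order Tlr12 (mean 8.72 FPKM), Tlr5 (3.74), Tlr2 (2.92), Tlr13 (2.22), Tlr1 (2.13), Tlr3 (2.10), Tlr7 (1.70), Tlr8 (1.46), Tlr4 (0.707), Tlr9 (0.486) and Tlr6 (0.376), and neighbours from Tlr13 to Tlr3 lay within the spread of the libraries.

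The lower receptor levels went with lower leukocyte transcript. Ptprc, which encodes the pan-leukocyte protein CD45, was at 1.17, 1.10 and 1.22 FPKM in Prdx1 C52S and at 2.74, 3.00 and 2.12 FPKM in WT. Per unit of Ptprc, Tlr1 stood at 1.15 ± 0.108 in Prdx1 C52S and 1.13 ± 0.158 in WT, and Tlr2 at 1.58 ± 0.362 and 1.54 ± 0.135. The same ratio was 0.266 ± 0.0332 and 0.253 ± 0.0294 for Tlr9, and 0.856 ± 0.137 and 0.928 ± 0.201 for Tlr7. For Tlr13 it was 1.06 ± 0.229 and 1.24 ± 0.321, and for Tlr8 0.711 ± 0.0124 and 0.829 ± 0.272 (all ratios of FPKM, SD, n = 3 each, Prdx1 C52S before WT). The groups overlapped in all 6 ratios. The leukocyte share of the tissue was not measured, and its part in the receptor differences was not tested.

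**Figure D3:**
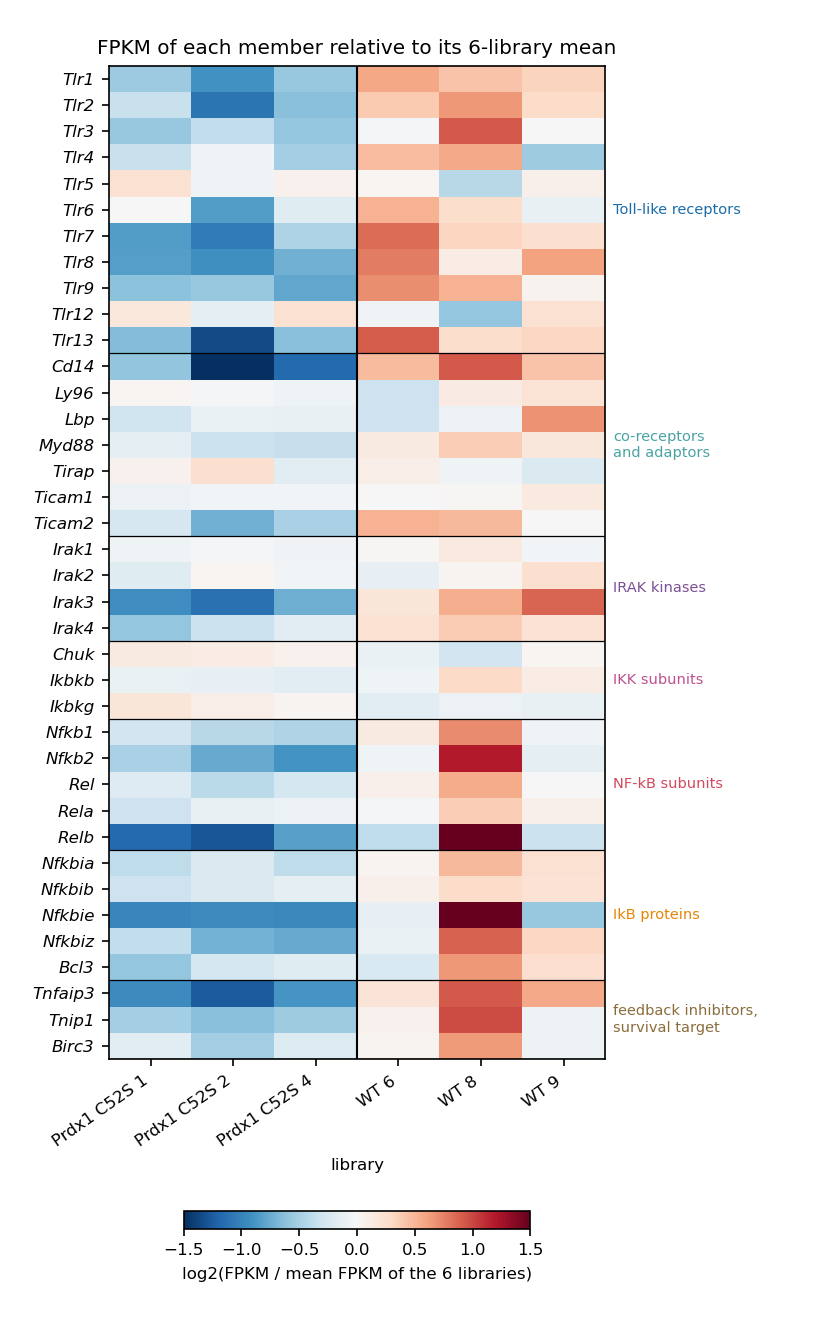
FPKM of each member (rows, grouped by role) in each library (columns) as log2 of its ratio to the mean of the 6 libraries; red is above and blue below that mean, and the vertical line parts Prdx1 C52S from WT. Most receptors are red in WT 6, with Tlr13 at 4.18 FPKM there, while the NF-kB subunits, IkB proteins and feedback genes are reddest in WT 8, with Relb at 6.37 and Nfkbie at 7.70 FPKM.

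Cd14, the co-receptor that hands LPS to TLR4, had the largest fold change of the 38 members with all 6 libraries, though not without WT 6 or WT 9, where Relb exceeded it, nor without Prdx1 C52S 2, where Relb and Tnfaip3 did. It was at 6.29, 2.36 and 4.24 FPKM in Prdx1 C52S 1, 2 and 4, against 13.2, 18.0 and 12.8 FPKM in WT 6, 8 and 9. The groups were far apart, although the Prdx1 C52S libraries differed among themselves by more than the WT libraries in relative terms (-1.47, SE 0.31, edgeR adjusted p = 0.0819; between -1.83 without Prdx1 C52S 1 and -1.18 without Prdx1 C52S 2). Per unit of Ptprc, Cd14 stood at 3.65 ± 1.62 in Prdx1 C52S and 5.63 ± 0.707 in WT, and these ratios overlapped. Its partners in LPS recognition did not follow it. Ly96, which encodes the MD-2 subunit of the receptor, was at 2.55 ± 0.0926 FPKM in Prdx1 C52S and 2.63 ± 0.473 in WT, and Lbp, the LPS carrier that hepatocytes secrete, at 11.5 ± 0.838 and 14.3 ± 5.40 (SD, n = 3 each). Lbp had 20.5 FPKM in WT 9 beside 10.4 and 12.1 in the other WT libraries, and its fold change of -0.05 became 0.38 without WT 9. The ratio of Cd14 to Ly96 was 2.37, 0.931 and 1.72 in Prdx1 C52S and 6.30, 6.36 and 4.31 in WT, without overlap.

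The adaptors carry the signal from the receptors to the kinases. Myd88, used by all members of the receptor family except TLR3, was at 5.44 ± 0.429 FPKM in Prdx1 C52S and 7.66 ± 0.695 in WT without overlap (SD, n = 3 each), and its fold change of -0.20 (SE 0.10, edgeR adjusted p = 0.239) was small. Tirap, which brings MyD88 to surface receptors, had 3.91, 4.43 and 3.31 FPKM in Prdx1 C52S, against 3.99, 3.57 and 3.22 FPKM in WT. These values overlapped, and its fold change of 0.40 (SE 0.16, edgeR adjusted p = 0.174) was 0.10 on library totals alone. Ticam1, which encodes TRIF, was at 5.13 ± 0.0862 FPKM in Prdx1 C52S and 5.55 ± 0.290 in WT. Its fold change was 0.17 after TMM scaling and -0.12 on library totals. Ticam2, the bridging adaptor between TLR4 and TRIF, was at 0.245 ± 0.0392 and 0.435 ± 0.0819 FPKM, but it shares 14299 bases with Tmed7 on the same strand, so its reads are uncertain. Myd88 overlaps Acaa1a on the other strand over 1736 bases, and no source used here states whether counting used the strand.

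The genes of the kinase steps lay on both sides of 0. Of the 7 IRAK and IKK genes, Irak3 alone (14.3%) was lower at an unadjusted p under 0.05, and Chuk and Ikbkg (28.6%) were higher. Over all genes tested these shares were 14.8% and 11.5%. The median log2 fold change of the 7 was 0.15. Irak3 encodes IRAK-M, a family member of macrophages that restrains signalling rather than passing it on. It had 0.397, 0.347 and 0.454 FPKM in Prdx1 C52S, against 0.858, 1.10 and 1.38 FPKM in WT. The groups did not overlap (-1.20, SE 0.28, edgeR adjusted p = 0.0853; -1.30 and adjusted p = 0.0468 without WT 8), at 108 to 123 estimated counts against 255 to 422. Irak1 and Irak2, which relay the signal, and Irak4, the kinase that starts it, differed less. Irak1 was at 13.4 ± 0.166 FPKM in Prdx1 C52S and 14.3 ± 0.966 in WT, Irak2 at 5.08 ± 0.361 and 5.56 ± 0.711, and Irak4 at 2.03 ± 0.296 and 3.12 ± 0.201 (SD, n = 3 each). Irak4 had a fold change of -0.33 (SE 0.14, edgeR adjusted p = 0.197). Those of Irak1 (0.20) and Irak2 (0.15) were -0.10 and -0.14 on library totals, so their direction depends on the scaling.

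The IKK complex joins the kinases IKK-alpha (Chuk) and IKK-beta (Ikbkb) to the regulatory subunit NEMO (Ikbkg). Ikbkg was at 11.5, 10.8 and 10.4 FPKM in Prdx1 C52S, against 9.02, 9.51 and 9.38 FPKM in WT. The groups were apart by a small step (0.51, SE 0.11, edgeR adjusted p = 0.0819; 0.44 and adjusted p = 0.0339 without WT 8; 0.22 on library totals). Ikbkg lies at chrX:74393290-74453778 and shares 19712 bases with G6pdx on the opposite strand, whose level was 2.31 to 3.00 FPKM in Prdx1 C52S and 3.53 to 6.20 in WT. Chuk, which also directs the non-canonical branch of the pathway, had 25.9, 25.5 and 24.7 FPKM in Prdx1 C52S, against 22.0, 19.4 and 24.0 FPKM in WT. It had the highest FPKM of the members in Prdx1 C52S, while in WT Nfkbia had a like mean (22.0 beside 21.8 FPKM). Its groups did not overlap (0.49, SE 0.17, edgeR adjusted p = 0.13; 0.33 without WT 8; 0.21 on library totals). Ikbkb had 3.10, 3.05 and 2.98 FPKM in Prdx1 C52S, against 3.19, 4.06 and 3.58 FPKM in WT, and its fold change of 0.05 (SE 0.09, edgeR adjusted p = 0.757) was -0.25 on library totals. The ratio of Chuk to Ikbkb was 8.36, 8.35 and 8.28 in Prdx1 C52S and 6.90, 4.76 and 6.69 in WT, a difference that no scaling of the libraries can alter.

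**Figure D4:**
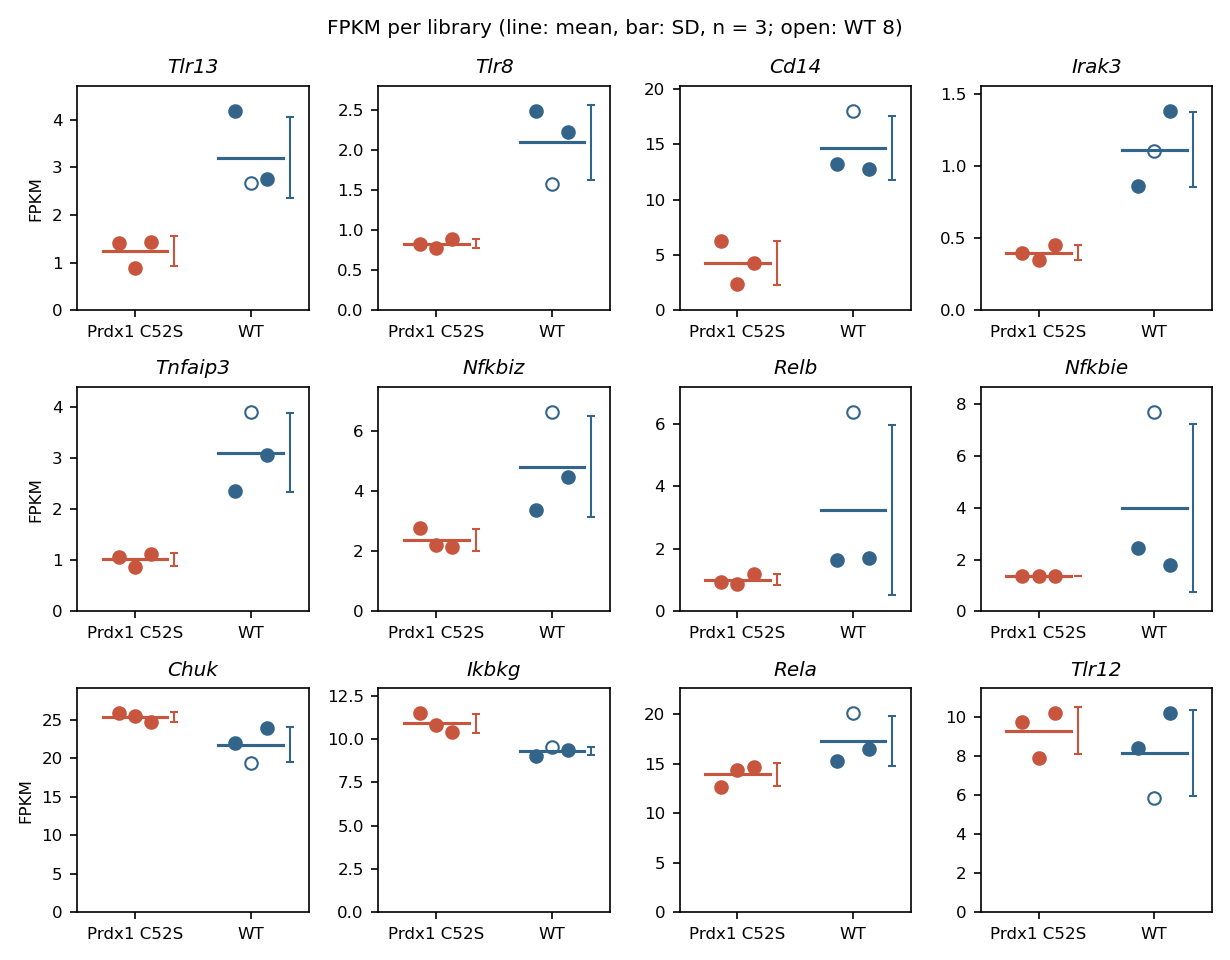
FPKM of 12 members in each library (points), with the mean (line) and SD (bar, n = 3) of Prdx1 C52S at left and WT at right; the open circle is WT 8. Tlr13, Tlr8, Cd14, Irak3, Tnfaip3 and Nfkbiz separate the groups in every library, Relb and Nfkbie have one high WT value (6.37 and 7.70 FPKM in WT 8), and Chuk and Ikbkg are higher in all 3 Prdx1 C52S libraries.

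The feedback genes act on several steps of the pathway, from IRAK to NF-kB itself. They were counted with Irak3, the IkB proteins that NF-kB induces and the survival gene Birc3, and not all of these are inhibitors. All 8 genes had negative fold changes on every library set and scaling tried. At an unadjusted p under 0.05, 6 of 8 (75%) were lower, beside 14.8% of all genes tested. The median log2 fold change was -0.66 (-0.40 without WT 8). Per unit of Ptprc the groups overlapped in the 3 of these genes for which the ratio was taken, Tnfaip3 (0.871 ± 0.0708 in Prdx1 C52S and 1.21 ± 0.308 in WT), Irak3 (0.341 ± 0.0284 and 0.445 ± 0.182) and Nfkbiz (2.04 ± 0.309 and 1.85 ± 0.542). It was not taken for Nfkbia, Nfkbie, Bcl3, Tnip1 and Birc3. Their mean FPKM in Prdx1 C52S was 0.668, 0.344, 0.66, 0.515 and 0.696 of that in WT. Ptprc itself was at 1.17, 1.10 and 1.22 FPKM in Prdx1 C52S and 2.74, 3.00 and 2.12 in WT. The 3 ratios therefore do not stand for all 8 genes. Tnfaip3 encodes A20, a ubiquitin-editing enzyme that shuts down signalling from Toll-like and TNF receptors. Its promoter window shown above holds matches at -125 to -116 and at -12 to -3. The gene lies at chr10:19000910-19015410 on the minus strand. It had 1.07, 0.871 and 1.12 FPKM in Prdx1 C52S 1, 2 and 4, against 2.36, 3.91 and 3.07 FPKM in WT 6, 8 and 9. The highest Prdx1 C52S value was below the lowest WT value (-1.30, SE 0.16, edgeR adjusted p = 0.0553). Without WT 8 it was -1.22 (adjusted p = 0.0151), and over all single-library omissions it stayed between -1.42 and -1.20. Tnip1, whose product ABIN1 binds A20, was at 4.03, 3.70 and 3.95 FPKM in Prdx1 C52S and 6.00, 11.3 and 5.42 FPKM in WT (-0.62, SE 0.19, edgeR adjusted p = 0.115; -0.36 without WT 8). Birc3, a ubiquitin ligase that protects from cell death and an NF-kB target, was at 3.56 ± 0.471 FPKM in Prdx1 C52S and 5.11 ± 1.44 in WT (SD, n = 3 each). Its fold change of -0.21 was -0.08 without WT 8.

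All 5 IkB proteins had negative fold changes. At an unadjusted p under 0.05, 3 of them (60%) were lower, beside 14.8% of all genes tested. Nfkbia, the classical inhibitor that NF-kB itself induces and whose promoter window above holds a match at -29 to -20, was at 14.1, 15.8 and 14.1 FPKM in Prdx1 C52S and 18.8, 25.6 and 21.5 FPKM in WT. The groups did not overlap and the difference was small (-0.28, SE 0.10, edgeR adjusted p = 0.142; -0.27 without WT 8). Its ratio to Rela, which needs no scaling between libraries, was 1.12, 1.10 and 0.958 in Prdx1 C52S and 1.23, 1.27 and 1.3 in WT. Nfkbiz, the nuclear IkB-zeta that assists a subset of target genes, had 2.78, 2.21 and 2.14 FPKM in Prdx1 C52S, against 3.37, 6.64 and 4.46 FPKM in WT (-0.70, SE 0.19, edgeR adjusted p = 0.0975; -0.53 without WT 8). Nfkbie, IkB-epsilon, had 1.36, 1.38 and 1.37 FPKM in Prdx1 C52S, against 2.46, 7.70 and 1.81 FPKM in WT. The Prdx1 C52S libraries were nearly alike, WT 8 was far above the other WT libraries, and the fold change of -1.16 (SE 0.44, edgeR adjusted p = 0.155) was -0.44 without it. Bcl3, a nuclear IkB protein that acts with p50 and p52 homodimers, was at 8.53 ± 1.19 FPKM in Prdx1 C52S and 12.9 ± 3.84 in WT with overlap, and Nfkbib, IkB-beta, at 5.77 ± 0.322 and 7.71 ± 0.532 (SD, n = 3 each).

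Of the 5 NF-kB subunits, 3 (60%) were lower at an unadjusted p under 0.05 (background 14.8%) and none was higher (background 11.5%). Relb, the partner of p52 in the non-canonical branch, had 0.947, 0.870 and 1.21 FPKM in Prdx1 C52S, against 1.63, 6.37 and 1.70 FPKM in WT. The groups were apart, but most of the difference in the means came from WT 8 (-1.29, SE 0.46, edgeR adjusted p = 0.142; -0.53 without WT 8). Nfkb2 is the gene of p100 and p52, and a promoter window of it is shown above. This gene had 3.41, 2.83 and 2.57 FPKM in Prdx1 C52S, against 4.56, 10.9 and 4.34 FPKM in WT, again highest in WT 8 (-0.82, SE 0.28, edgeR adjusted p = 0.131; -0.41 without WT 8). Nfkb1, the gene of p105 and p50, had 2.77, 2.55 and 2.48 FPKM in Prdx1 C52S, against 3.71, 5.56 and 3.28 FPKM in WT (-0.37, SE 0.13, edgeR adjusted p = 0.131; -0.23 without WT 8). Rel was at 1.20 ± 0.0891 FPKM in Prdx1 C52S and 1.72 ± 0.373 in WT, with a fold change of -0.21. Rela, the transactivating subunit of the canonical dimer and the most abundant of the 5, was at 13.9 ± 1.17 FPKM in Prdx1 C52S and 17.3 ± 2.52 in WT (SD, n = 3 each). Its fold change was -0.01 after TMM scaling (SE 0.10, edgeR adjusted p = 0.943), near 0 without WT 8, and -0.32 on library totals, close to the median of all genes on that scale.

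Within WT, the roles peaked in different libraries. After TMM scaling, 8 of 11 receptors were highest in WT 6 (background 12.7% of all genes tested) and 1 in WT 8 (Tlr3; background 31.4%). Of the 13 NF-kB subunits, IkB proteins and feedback or survival genes, 10 were highest in WT 8 and none in WT 6. The bile duct markers were highest in WT 8 and the Kupffer cell markers lowest there, as given above, and the part of either in the WT 8 values was not tested. Leaving out WT 8 moved the fold changes of Relb, Nfkbie and Nfkb2 by the most on the log2 scale, while Tnfaip3, Irak3, Cd14 and the lower receptors other than Tlr3 had fold changes of similar size without it.

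Other genes of the pathway were read from a list of 40, among them the adaptors TRAF6 and TRAF3, the kinases TAK1 and TBK1, and the chaperones of the receptors. Of these, 11 were lower and 4 higher at an unadjusted p under 0.05 (27.5% and 10%, beside the 14.8% and 11.5% of all genes tested). The median log2 fold change was -0.09, or -0.03 without WT 8, where 3 were called lower after adjustment (background 1.94%). Among the lower ones, those with the smallest p were Ly86, which encodes the MD-1 partner of the TLR4 homologue CD180, at 1.98 ± 0.123 FPKM in Prdx1 C52S and 4.39 ± 0.277 in WT (-0.86, edgeR adjusted p = 0.0553), Tifa, a TRAF-binding adaptor, at 4.84 ± 0.399 and 9.25 ± 1.05 (-0.64, edgeR adjusted p = 0.0553), and Pik3ap1, an adaptor to PI3-kinase, at 12.7 ± 0.297 and 22.6 ± 7.18 (-0.51, edgeR adjusted p = 0.107). On the higher side were Map3k7, the gene of TAK1, at 7.24 ± 0.367 FPKM in Prdx1 C52S and 7.12 ± 0.539 in WT (0.32), Peli2 at 2.14 ± 0.101 and 1.88 ± 0.289 (0.46), and Tab2, a TAK1-binding protein, at 8.32 ± 0.878 and 8.37 ± 0.699 (0.29), with edgeR adjusted p-values of 0.106, 0.164 and 0.167. Of 30 target genes of NF-kB, 29 were tested. Among these, 17 (58.6%) were lower and none higher at an unadjusted p under 0.05, beside 14.8% and 11.5% of all genes tested. The median was -0.95, or -0.80 without WT 8, where 4 were called lower after adjustment (background 1.94%). Vcam1, the adhesion molecule of activated endothelium, was at 3.23 ± 0.493 FPKM in Prdx1 C52S and 10.3 ± 1.34 in WT (-1.37, edgeR adjusted p = 0.0553). Junb, an AP-1 subunit, was at 7.01 ± 0.819 and 15.9 ± 3.50 (-0.87, edgeR adjusted p = 0.0553), and Il1rn, the interleukin-1 receptor antagonist, at 1.48 ± 0.146 and 3.50 ± 0.551 (-0.95, edgeR adjusted p = 0.0587). The only positive fold changes in this list were those of Sod2 (0.44), Sele (0.36) and Cxcl10 (0.16), none of which passed. This list too holds genes that leukocytes and other cell types express, and the marker values given above stand beside it. The part of cell composition in these differences was not tested.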

How the data were processed

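The deposited table holds an FPKM value and an estimated count for each gene and library, per the file headers. FPKM values were scaled by the authors to transcript length and depth, and the deposited estimated counts are whole numbers. Among counts of 1 to 8, the count 4 was the most frequent (6204 values, beside 3538 at 3 and 1965 at 5). The factor of about 4 counts per fragment is an inference. Per the submitters' processing notes, the tools included StringTie 1.3.4d and HISAT2 2.0.4, and the build was mm9. The coordinates in the table are nevertheless GRCm38: 26753 of 29734 genes match GENCODE M21 in chromosome, start and end.

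The main test was the robust quasi-likelihood F-test of edgeR 4.0.16 (R 4.3.3) on the counts, which are already whole (TMM, filterByExpr, two-sided, Benjamini-Hochberg over 18931 genes, threshold 0.05, no covariate). The SE is the absolute log2 fold change over the square root of F. DESeq2 1.42.0, limma 3.58.1 on log2(FPKM + 1) and log2(FPKM + 0.1), other scalings, no filter, counts divided by 4 and omission of each library were alternatives. The count test was tested on simulated data. Promoter windows came from RefSeq, of which 28 of 38 members had at least 1. Ratios, overlaps and class counts were computed on deposited FPKM unless TMM scaling is named.

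Members and lists were chosen with earlier results of these data known. Given per library are members with an unadjusted p under 0.05, all IKK subunits and the most abundant receptor, and Tlr5, which was chosen after its values were seen. Other members are given by mean and SD. For other lists, the 3 genes with the smallest p in each direction are named. The feedback group of 8 comprises Irak3, Nfkbia, Nfkbie, Nfkbiz, Bcl3, Tnfaip3, Tnip1 and Birc3. The split of receptors into endosomal and surface ones and all ratios were set after values were seen. Of the members, 15 overlap another annotated gene, 5 on the same strand and 12 on the other.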

Additional observations from a re-analysis of the deposited data

How the results depend on the processing

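No paired analysis was possible because the replicate numbers of the genotypes do not overlap. With all 6 libraries edgeR called 0 genes lower and 0 higher. Over single-library omissions these counts ran from 0 to 375 lower and 0 to 522 higher, with the highest in both without WT 8 and 69 and 63 without WT 9. They were 125 and 35 on library totals, 1723 and 1399 with DESeq2, 91 and 105 with no filter, 118 and 40 with limma on log2(FPKM + 1), 221 and 58 on log2(FPKM + 0.1), and 40 and 43 with counts divided by 4. Members called lower numbered 1, 13, 1, 2, 4 and 1 under these 6 settings in that order, and 0 to 6 over omissions. Members called higher numbered 2 with DESeq2 and 0 to 1 over omissions. At an unadjusted p under 0.05, 26 members were lower on library totals, against 17, and 12 to 17 were lower over omissions. Higher members at that p numbered 1 on library totals and with both limma fits, and 1 to 6 over omissions, against 3. The members' median of -0.28 was -0.60 on library totals, -0.41 and -0.56 with limma on the pseudocounts 1 and 0.1, and -0.34 to -0.25 over omissions. RLE size factors moved no count of calls.

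Signs turned in few members. On library totals, with limma on log2(FPKM + 1) and on log2(FPKM + 0.1), the fold change was -0.12, -0.09 and -0.11 for Ticam1, -0.05, -0.02 and -0.03 for Ly96, -0.10, -0.09 and -0.09 for Irak1, -0.14, -0.10 and -0.12 for Irak2, and -0.25, -0.19 and -0.23 for Ikbkb. These settings leave out the TMM factors, which moves the median of all genes tested. Over omissions Lbp ran from -0.23 to 0.38 and Rela from -0.06 to 0.07. No other member changed sign. Members with 66 to 231 counts, such as Tlr9, Tlr6 and Ticam2, rest on few fragments, which limits their precision.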
